A study of Mus musculus with 20 samples.

Results

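Complement is a cascade of secreted proteins, their cell-surface receptors and their inhibitors, and 9 of its genes were followed here across all 20 cortex libraries of APOE4 mice. They were taken by name out of the 23413 genes counted: C1qa, C1qb and C1qc, which encode the chains of the recognition protein C1q; C4b, C2 and C3, which encode components; C3ar1 and C5ar1, which encode receptors; and Serping1, which encodes a regulator. All 9 passed the filter on low counts, as did 15660 genes in all. In the brain, C1q comes mainly from microglia. It can tag synapses, after which C4 and C2 are cleaved, the central component C3 is activated, and microglia with complement receptors may remove what is tagged. The products C3a and C5a act through the receptors C3ar1 and C5ar1, and the inhibitor encoded by Serping1 blocks the C1 proteases at the start of the classical pathway.

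All mice carried the human APOE4 sequence in place of the mouse gene (the allele Apoe tm1.1(APOE*4)Adiuj, on a B6(SJL) background), so there was no group without APOE4. They were housed singly and given a control diet (CD) or a ketogenic diet (KD) of equal calories from 10 months of age for 12 months, and their frozen brain cortex was taken at 22 months. On the CD there were 5 females and 5 males, and on the KD 4 females and 6 males. Each mouse gave 1 total RNA library, and the question was what the diet did in each sex. Library numbers fell into 2 series of 10, with every group in both, and totals were 21015275 to 29109990 counts in series 1 and 12207161 to 17697342 in series 2.

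Some libraries stood apart from their labels or their group. CD female E228 had 14.0 CPM (counts scaled to the library's total) of the Y-linked gene Ddx3y, against at most 1.64 CPM in the other females. The summed level of 12 striatal neuron markers, a tissue the label does not name, was 2302 to 2853 CPM in KD females E61, E68 and E207, 3334 CPM in KD male E59 and 1070 CPM in CD female E249, and at most 528 CPM in the other 15 libraries, among them KD female E227. E59 also had 2380 CPM of summed choroid plexus markers, against at most 63.5 CPM elsewhere. Results are therefore given also without E228, E249, E227 and E59. All 3 KD females left in that setting had the striatal signal and none of the CD females left had it, so diet and tissue composition cannot be told apart there. With all females kept, E61, E68 and E207 on the KD but only E249 on the CD had the signal. Diet and tissue composition were therefore not cleanly separated in the main comparison of females either.

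C1qa, C1qb and C1qc lie side by side on the minus strand of chromosome 4, within 18.7 kb (GRCm38, 136880129 to 136898803). C4b (34728380 to 34743882), C2 (34862604 to 34898265) and C3 (57203970 to 57228136) are on chromosome 17. C3ar1 is on chromosome 6 (122847138 to 122856161), C5ar1 on chromosome 7 (16246743 to 16259540) and Serping1 on chromosome 2 (84765387 to 84775444). Of the stretches of 50 bases in C4b transcripts, 34.6% occur also in C4a, and 38.7% of those of C2 occur also in Gm20547, a gene that overlaps it on the same strand. The counts of C4b and C2 are uncertain to that extent. The other 7 genes shared none with another gene.

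Of the C1q chain genes, the bases before the start are shown for C1qb and C1qc, for which the set used here had a window. The set of RefSeq windows before gene starts used here (GRCm38.p6) held 5 of the 9 genes, namely C1qb, C1qc, C3, C3ar1 and C5ar1. It had no window for C1qa, C4b, C2 and Serping1, a gap of the set used. Both stretches are on the minus strand and written 5′ to 3′: the 250 bases of C1qb are chr4:136886201-136886450, and the 99 bases of C1qc are chr4:136893066-136893164, cut to lie before the earlier start in the GENCODE annotation. Capitals mark GAGGAA or its reverse complement TTCCTC, a core of sites of the myeloid transcription factor PU.1.
C1qb: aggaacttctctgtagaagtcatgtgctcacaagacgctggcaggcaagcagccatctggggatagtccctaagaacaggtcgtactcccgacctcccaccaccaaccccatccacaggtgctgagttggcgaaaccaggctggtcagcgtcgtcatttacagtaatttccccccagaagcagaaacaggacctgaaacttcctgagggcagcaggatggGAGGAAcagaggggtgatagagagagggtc
C1qc: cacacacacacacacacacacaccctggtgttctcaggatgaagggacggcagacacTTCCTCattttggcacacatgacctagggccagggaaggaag
Each held the motif 1 time, and the 250-base windows of C3, C3ar1 and C5ar1 held none. Of 27025 RefSeq windows of 250 bases, 23.1% held it on either strand, so a match describes the letters and not a site.

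Levels were compared between genes only per length, as CPM per kilobase of exon. C1qb was highest, at 23.7 ± 7.40 CPM per kb (SD, n = 20), followed by C1qa at 18.6 ± 6.74. C4b at 9.47 ± 2.96 and C1qc at 9.28 ± 2.84 could not be ordered, with C4b the higher in 10 of 20 libraries. Well below them were Serping1 at 2.26 ± 1.25, C3ar1 at 1.16 ± 0.306 and C2 at 1.05 ± 0.599 CPM per kb. C3ar1 was above C2 in 14 of 20 libraries, and Serping1 above C3ar1 in 19. The lowest levels per kb were those of C3, at 0.199 ± 0.169, and C5ar1, at 0.186 ± 0.0705, and these also changed places, with C3 the higher in 9 of 20 libraries. The order therefore ran from the C1q chains and C4b, through the regulator, 1 receptor and C2, down to the central component C3 and the other receptor. The lengths count all exon bases, also those that C4b and C2 share with other genes (34.6% and 38.7% of 50-base stretches). The places of C4b and C2 next to their neighbours in this order are therefore uncertain.

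**Figure D1:**
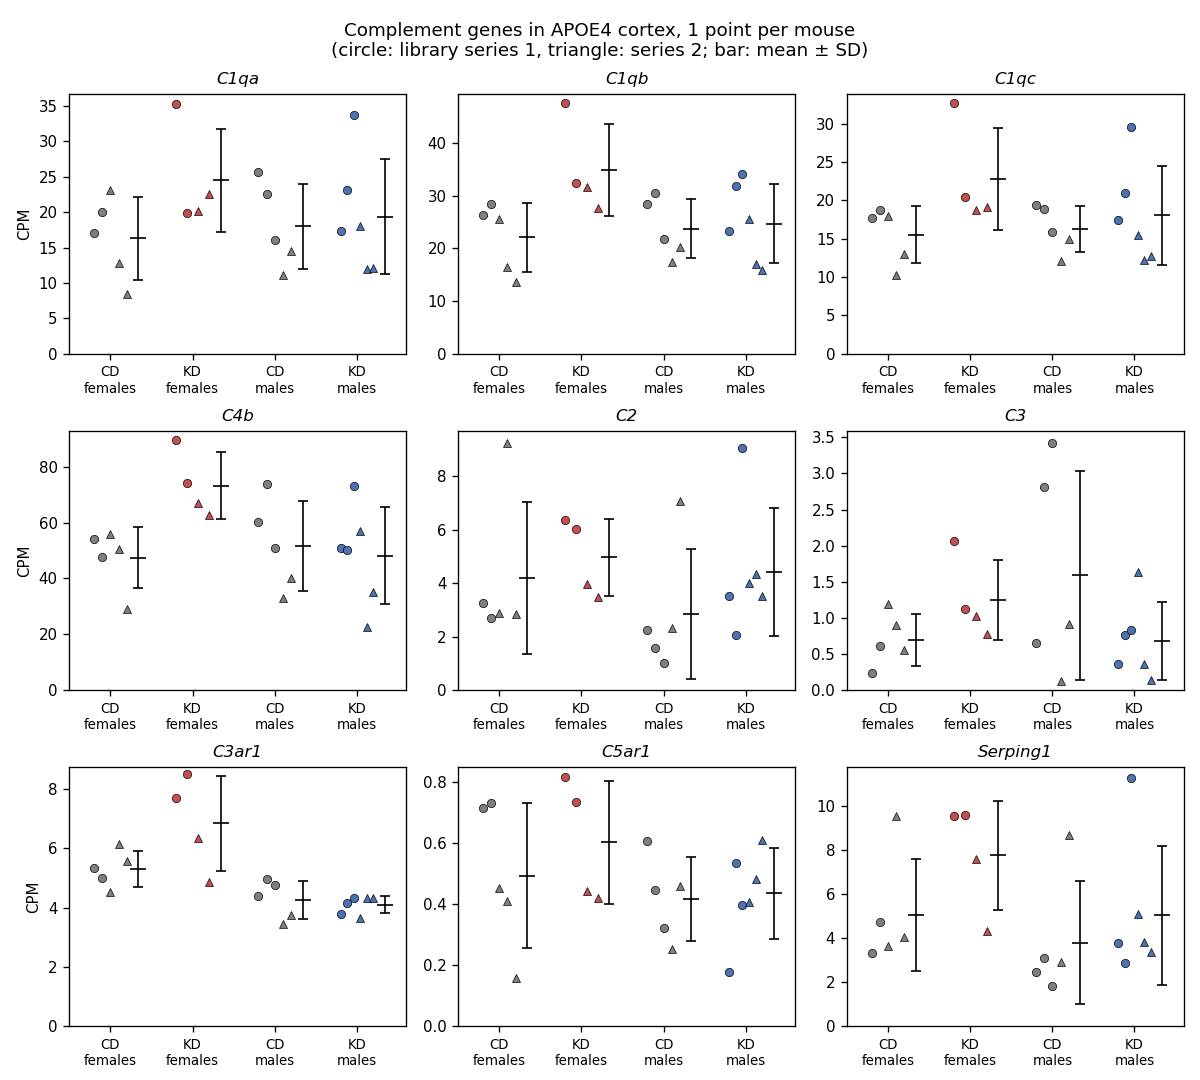
CPM (counts scaled to library totals, vertical axes from 0) of the 9 complement genes in each mouse, by diet and sex group, with the mean and SD of each group beside its points. The 4 KD females lie above the 5 CD females for C1qc and C4b, and above the 6 KD males for C3ar1, while C2 and Serping1 each have 1 high library in CD females, CD males and KD males.

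In females, the C1q chains and C4b were higher on the KD, by amounts that did not pass the threshold used for calls. Calls were made with edgeR's quasi-likelihood test at an adjusted p (Benjamini-Hochberg, over 15660 genes) of 0.1 and a 1.5-fold change, with the library series as a term. By this rule 0 of the 9 genes were called in females, against 7 of 15660 genes (0.0447%). At an unadjusted p under 0.05, 3 of 9 were higher on the KD (C1qb, C1qc and C4b) and 0 were lower, against 5.86% and 5.5% of all genes. All 9 had a log2 fold change above 0, with a median of 0.47, as did 52.7% of all genes, whose median was 0.01. These are bulk libraries, in which more cells of a type and more RNA per cell cannot be told apart.

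The C1qb level, for the B chain of C1q, was 26.4, 28.4, 16.5, 13.7 and 25.7 CPM in CD females E62, E67, E249, E265 and E228. In KD females E61, E68, E207 and E227 it was 47.6, 32.5, 31.6 and 27.8 CPM. Only E227 among KD females was below the highest CD female, and E61 was well above all others. C1qb had a log2 fold change of 0.55 (SE 0.167, 1.47-fold, unadjusted p = 0.00361, adjusted p = 0.226), and the exact two-sided permutation test of the 9 libraries gave p = 0.0476. Its 126 splits, here and for the other genes, did not keep the library series apart, whereas the fit has the series as a term. It was 0.50 in series 1 alone and 0.61 in series 2 alone. Without the 4 libraries named above it was 0.68 (adjusted p = 0.0274).

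The C1qc level, for the C chain, was 17.7, 18.7, 10.3, 13.02 and 18.0 CPM in CD females in the same order, and 32.7, 20.5, 18.8 and 19.2 CPM in KD females. The groups did not overlap, by a margin far smaller than the distance of E61 from the other KD females. The log2 fold change of C1qc was 0.43 (SE 0.166, unadjusted p = 0.0179, adjusted p = 0.316), and the exact permutation p was 0.0238. Without E61 it was 0.33 (unadjusted p = 0.0822), and without the 4 libraries 0.47 (adjusted p = 0.128). The A chain gene C1qa was 16.3 ± 5.84 CPM (SD, n = 5) in CD females and 24.5 ± 7.28 CPM (n = 4) in KD females, and the groups overlapped. Its log2 fold change was 0.47 (SE 0.245, unadjusted p = 0.0724, adjusted p = 0.498). It was 0.73 without E228, the CD female of highest C1qa at 23.2 CPM, and 0.72 without the 4 libraries (adjusted p = 0.0792).

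C4b, the component cleaved after C1q has bound, was 54.1, 47.7, 50.6, 28.9 and 56.1 CPM in CD females E62, E67, E249, E265 and E228. It was 89.6, 74.1, 66.9 and 62.6 CPM in KD females E61, E68, E207 and E227. Every KD female was above every CD female, as for C1qc, so 2 of 9 genes had groups without overlap in this direction, against 1.7% of all genes. C4b had a log2 fold change of 0.51 (SE 0.214, 1.43-fold, unadjusted p = 0.0271, adjusted p = 0.364). Its exact permutation p was 0.00794, the smallest that 126 splits can give. As each library was left out, the log2 fold change was 0.42 to 0.63, with an unadjusted p above 0.05 without E62, E67, E207 or E265 (up to 0.075). It was 0.64 in series 1 alone (unadjusted p = 0.0091) and 0.46 in series 2 alone (unadjusted p = 0.208). Without the 4 libraries it was 0.80 (adjusted p = 0.0357).

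In that setting without E228, E249, E227 and E59, 3 of 9 complement genes passed both thresholds in females (C1qa, C1qb and C4b), against 1827 of 15895 genes (11.5%). KD female E227, with striatal markers at 271 CPM, had 62.6 CPM of C4b and 19.2 CPM of C1qc, above every CD female, but 27.8 CPM of C1qb, below the 28.4 CPM of CD female E67. KD male E59, with the highest striatal and choroid plexus signals, had 50.3 CPM of C4b, near the median of 50.6 CPM in KD males. Its C1qa (23.1 CPM), C1qb (31.9 CPM) and C1qc (20.9 CPM) were each the second highest of the KD males. CD female E249 had 50.6 CPM of C4b and 10.3 CPM of C1qc, the median and the lowest of the CD females. The part of the striatal signal in these levels was not tested.

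The microglial markers had the same direction as these genes. All 15 had a log2 fold change above 0 in females, with a median of 0.23, 3 of them higher at an unadjusted p under 0.05, and their summed level was 383 to 547 CPM in CD females and 484 to 654 CPM in KD females. None was at 0, and the defining marker Cx3cr1 was 53.4 to 79.6 CPM in CD females and 59.7 to 95.9 CPM in KD females. The CD and KD females also overlapped for P2ry12 (50.6 to 77.2 and 52.3 to 82.0 CPM) and Tmem119 (4.21 to 12.5 and 8.46 to 13.6 CPM). The striatal markers were higher on the KD in 9 of 12 at that threshold (median 2.13), and 5 of 8 cortical neuron markers were lower (median -0.81). All 6 oligodendrocyte markers had a log2 fold change above 0 (median 0.30, 0 at that threshold), and their sum was 2512 to 3044 CPM in CD females and 3015 to 3821 CPM in KD females. With that sum C4b had r = 0.50 over the 20 libraries, 0.03 in series 1 and 0.88 in series 2. Of 10 astrocyte markers 7 were above 0 (median 0.16, 1 higher at that threshold), with sums of 6183 to 7278 CPM in CD females and 6351 to 7558 CPM in KD females, but the astrocyte gene Gfap was 64.8 to 108 CPM in CD females and 114 to 186 CPM in KD females, without overlap. The part of these in the C1q and C4b values was not tested.

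C2, the component that joins C4b in the enzyme that cleaves C3, was 3.24, 2.67, 9.26, 2.86 and 2.88 CPM in CD females and 6.37, 6.03, 3.97 and 3.47 CPM in KD females. Its highest level was that of E249 on the CD, and the other 4 CD females were all below the KD females. The log2 fold change was 0.32 (SE 0.498, unadjusted p = 0.525), 0.74 without E249, and it was 1.03 in series 1 alone but -0.48 in series 2 alone. For C3 the 5 CD females had 0.238, 0.608, 0.901, 0.556 and 1.19 CPM, and the 4 KD females 2.06, 1.12, 1.03 and 0.777 CPM. These are low levels that overlapped, with a log2 fold change of 0.69 (SE 0.707, unadjusted p = 0.342). It was 0.32 without E62, 0.44 without E61 and 1.03 without E228, and 1.83 in series 1 alone (unadjusted p = 0.0437) but -0.05 in series 2 alone. Serping1 was 3.33, 4.70, 9.50, 4.05 and 3.62 CPM in CD females and 9.51, 9.56, 7.58 and 4.31 CPM in KD females, again with E249 at the level of the highest KD females. Its log2 fold change was 0.62 (SE 0.459, 1.53-fold, unadjusted p = 0.196), 0.93 without E249, 1.20 in series 1 alone (unadjusted p = 0.0488) and -0.01 in series 2 alone. For the receptor gene C5ar1, with 2 to 21 counts per library, it was 0.18 (SE 0.377).

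**Figure D2:**
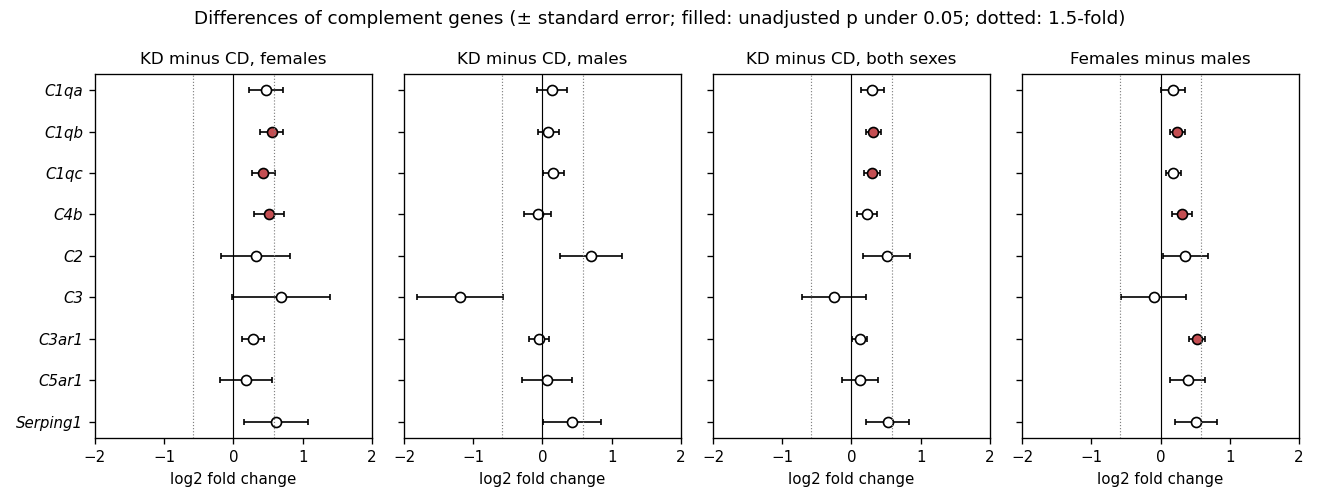
Log2 fold changes of the 9 complement genes with their standard errors in 4 comparisons, filled where the unadjusted p is under 0.05, with dotted lines at a 1.5-fold change. In females all 9 points lie above 0 (median 0.47), whereas in males 6 do (median 0.08), and C3ar1 has the smallest standard error, 0.110, of the sex differences.

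In males, none of the 9 genes differed between the diets at an unadjusted p under 0.05, against 2.37% of all genes higher and 1.19% lower on the KD. None was called by the adjusted rule, as for all genes (0%). The median log2 fold change was 0.08, with 6 of 9 above 0, as for 49.1% of all genes. In CD males E51, E58, E66, E251 and E264 C1qb was 28.5, 30.6, 21.8, 17.5 and 20.3 CPM, and in the 6 KD males it ranged from 15.9 to 34.2 CPM with a median of 24.5. The groups overlapped almost fully, and the log2 fold change of C1qb was 0.08 (SE 0.151, unadjusted p = 0.598). C4b was 60.4, 73.9, 51.1, 32.9 and 40.3 CPM in CD males and 22.7 to 73.1 CPM (median 50.6) in KD males. For C4b it was -0.07 (SE 0.194, unadjusted p = 0.733).

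The largest values in males belonged to genes with wide spreads. C3 was 0.650, 2.82, 3.43, 0.126 and 0.919 CPM in CD males and 0.135 to 1.63 CPM (median 0.561) in KD males. CD males E58 and E66 were above all KD males, E251 was below them, and E51 and E264 lay among them. The log2 fold change of C3 was -1.19 (SE 0.623, unadjusted p = 0.0719, adjusted p = 1), and -0.75 without E66. In series 1 alone it was -1.89 (unadjusted p = 0.0112, adjusted p = 0.704), and in series 2 alone 0.40. C2 was 2.25, 1.58, 1.01, 2.32 and 7.07 CPM in CD males and 2.06 to 9.04 CPM (median 3.76) in KD males. Its log2 fold change was 0.70 (SE 0.452, unadjusted p = 0.138), and 0.28 without the highest KD male, E64. For C2 it was 1.55 in series 1 alone (unadjusted p = 0.00828, adjusted p = 0.704) and -0.24 in series 2 alone. Serping1 was 2.47, 3.09, 1.81, 2.89 and 8.68 CPM in CD males and 2.86 to 11.2 CPM (median 3.77) in KD males. Here too E264 and E64 were the high libraries, and the log2 fold change of 0.43 (SE 0.417, unadjusted p = 0.317) became -0.02 without E64. For Serping1 it was 1.22 in series 1 alone (unadjusted p = 0.0212, adjusted p = 0.781) and -0.49 in series 2 alone. The remaining genes of the list, C1qa, C1qc, C3ar1 and C5ar1, had values between -0.05 and 0.16.

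Whether the diet acted differently in the sexes was tested as an interaction, the effect in females minus that in males. None of the 9 genes was called, as for all genes (0%), and 1 (C1qb) was higher in females at an unadjusted p under 0.05, against 1.09% of all genes. For C1qb the interaction was 0.47 (SE 0.226, unadjusted p = 0.0498, adjusted p = 1), for C4b 0.58 (SE 0.290, unadjusted p = 0.0601) and for C3 1.88 (SE 0.966, unadjusted p = 0.0671). The C1qb interaction kept an unadjusted p under 0.05 in 6 of 20 cases as each library was left out, and missed it without E51, E58, E53, E62, E67, E61, E207, E249, E265, E256, E251, E227, E264 or E254. Its values over the 20 cases were 0.40 to 0.60, with an unadjusted p up to 0.104. The difference between the sexes in the response of these genes was therefore not shown after adjustment. Over both sexes together, a comparison that shares all its libraries with those of each sex, 0 of 9 were called, against 42 of 15660 genes (0.268%). C1qb (log2 fold change 0.32, SE 0.113, unadjusted p = 0.0109, adjusted p = 0.204) and C1qc (0.29, SE 0.112, unadjusted p = 0.0165, adjusted p = 0.232) were higher on the KD at the unadjusted threshold, 2 of 9 against 7.41% of all genes. Without E61 that of C1qc was 0.24 (unadjusted p = 0.0519). In series 1 alone C2 (1.29, adjusted p = 0.0859) and Serping1 (1.21, adjusted p = 0.0895) were called, against 5.55% of all genes, and in series 2 alone their values were -0.36 and -0.25.

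Between the sexes, the smallest p of the 9 genes was that of C3ar1, the receptor of C3a, which microglia carry. It was 5.33, 4.98, 6.14, 5.56 and 4.52 CPM in CD females and 7.69, 8.49, 6.33 and 4.84 CPM in KD females. In CD males it was 4.38, 4.95, 4.76, 3.45 and 3.74 CPM, and in KD males 3.66 to 4.34 CPM (median 4.24). Every KD female was above every KD male, which held for 1 of the 9 genes and for 1% of all genes, while the CD groups overlapped between 4.52 and 4.95 CPM. Averaged over the diets, the log2 fold change of females against males was 0.53 (SE 0.110, 1.44-fold, unadjusted p = 0.000126, adjusted p = 0.0888). It passed the adjusted p but not the 1.5-fold change, so 0 of 9 genes were called against 21 of 15660 (0.134%). By the adjusted p alone 1 of 9 was, against 0.153% of all genes.

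The direction of the C3ar1 difference was the same in all 36 alternatives. Its log2 fold change was 0.47 to 0.58 as each library was left out, but its adjusted p ran from 0.00695 to 0.338 and passed 0.1 in 5 of 20 cases, those without E59, E62, E67, E228 or E227. It was 0.55 without E228 (adjusted p = 0.0754) and 0.56 without the 4 libraries (adjusted p = 0.00762). On the CD alone it was 0.36 (unadjusted p = 0.0327, adjusted p = 0.978), and on the KD alone 0.69 (unadjusted p = 0.000268, adjusted p = 0.122). The interaction for C3ar1 was 0.33 (SE 0.223, unadjusted p = 0.156). The diet itself gave 0.28 in females (SE 0.164, unadjusted p = 0.101) and -0.05 in males (SE 0.149, unadjusted p = 0.753).

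At an unadjusted p under 0.05, C1qb (log2 fold change 0.24, SE 0.113, adjusted p = 0.354) and C4b (0.31, SE 0.146, adjusted p = 0.367) were also higher in females, making 3 of 9 with C3ar1, against 8.59% of all genes. As each library was left out, C1qb stayed under that threshold in 9 of 20 cases (log2 fold change 0.18 to 0.30, unadjusted p up to 0.11), those other than without E51, E66, E53, E62, E67, E61, E207, E228, E256, E251 or E254. C4b did so in 6 of 20 cases (0.23 to 0.39, unadjusted p up to 0.106), those other than without E51, E66, E53, E59, E62, E61, E207, E249, E228, E256, E251, E227, E264 or E254. On the CD alone these were 0.01 for C1qb and 0.02 for C4b, and on the KD alone 0.48 and 0.60. For C3 the values were opposite on the diets, -1.04 on the CD and 0.84 on the KD, and averaged -0.10 (SE 0.474, adjusted p = 0.937). The microglial markers were higher in females in 15 of 15 by direction, 5 of them at that threshold (median 0.17), and 1 passed the call. Their summed level was 383 to 654 CPM in females and 384 to 521 CPM in males. The endothelial markers were higher in females in 10 of 10 by direction, 5 of them at that threshold (median 0.22). These summed to 243 to 343 CPM in females and 218 to 287 CPM in males. The cortical neuron markers were lower in females in 8 of 8 by direction, 5 of them at that threshold (median -0.47), with sums of 739 to 1781 CPM in females and 1298 to 1780 CPM in males. The striatal markers were higher in 12 of 12 by direction, 4 at that threshold (median 1.21), and summed to 210 to 2853 CPM in females and 200 to 3334 CPM in males. The part of these in the C3ar1 value was not tested.

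The 9 genes did not vary as 1 group over the libraries. Pearson's r of log2 CPM over the 20 libraries is given as a description, since the libraries share their series, their group and their depth. The C1q chains went together, with r = 0.94 for C1qa with C1qb (Spearman's rho 0.88), 0.92 for C1qa with C1qc (rho 0.91) and 0.93 for C1qb with C1qc (rho 0.95), and C4b followed C1qb with r = 0.87 (rho 0.82). These stayed at 0.79 or above for C1qb in each series. C2 and Serping1 formed another pair, with r = 0.91 (rho 0.87, 0.94 in series 1 and 0.87 in series 2). C2 had r of 0.08 to 0.12 with the C1q chains over the 20 libraries, but 0.59 to 0.76 in series 1 and -0.30 to 0.00 in series 2.

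**Figure D3:**
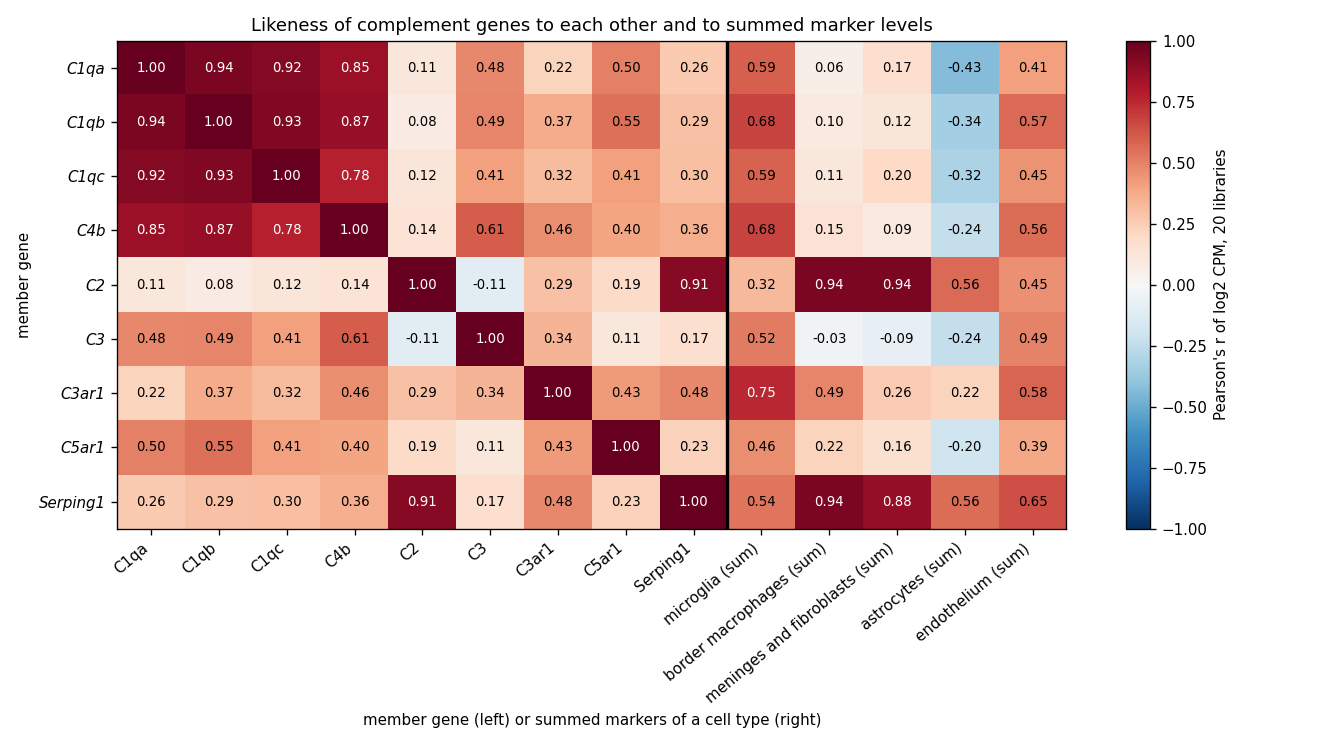
Pearson's r of log2 CPM over 20 libraries, of each complement gene (rows) with each other and with summed markers of 5 cell types (columns right of the line). The sums for striatal and cortical neurons are not drawn. A block of C1qa, C1qb, C1qc and C4b has r of 0.78 to 0.94, and C2 and Serping1 have 0.91 with each other and 0.88 to 0.94 with the sums for border macrophages and for meninges and fibroblasts.

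The genes outside the list closest to each were named by a fixed rule, the 3 highest r of 15651 genes. For C1qa they were Acsbg1 (0.95), Selplg (0.94) and Csf1r (0.94), and for C1qb Acsbg1 (0.96), Cst3 (0.95) and Metrn (0.95). Selplg and Csf1r are among the microglial markers used here, while Acsbg1, Cst3 and Metrn are on none of the marker lists. For C1qc they were Plcb3 (0.95), Cd81 (0.95) and Cygb (0.93), and for C4b Psd2 (0.93), Tln1 (0.91) and Kif1c (0.91). C2 was closest to F13a1 (0.96), Slc6a13 (0.96) and Slc13a4 (0.95), and Serping1 to the collagen gene Col3a1 (0.97), Slc6a13 (0.95) and Slc22a8 (0.94). F13a1 is among the border macrophage markers, and Slc6a13, Slc13a4 and Col3a1 among those of meninges and fibroblasts. C3 was closest to the class I histocompatibility genes H2-K1 (0.78) and H2-D1 (0.73), with L3mbtl4 (0.74) between them. C3ar1 was closest to Shh (0.89), Qpct (0.89) and Sepp1 (0.88). C5ar1 had the lowest of these values, with Wdr59 (0.70), B4galnt2 (0.69) and Casp6 (0.69).

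With summed markers, C2 had r = 0.94 for border macrophages and 0.94 for meninges and fibroblasts, and Serping1 0.94 and 0.88. The 9 meningeal and fibroblast markers summed to 80.8 to 241 CPM in CD females, 124 to 200 CPM in KD females, 39.0 to 185 CPM in CD males and 84.4 to 447 CPM in KD males. The highest library of each of the groups CD females, CD males and KD males was E249, E264 and E64, the same that were highest for C2 and Serping1. All 9 of these markers had a log2 fold change above 0 on the KD in females (median 0.34, 0 at an unadjusted p under 0.05) and in males (median 0.74, 2 at that threshold). Their part in the values of C2 and Serping1 was not tested. With the microglial sum, C3ar1 had r = 0.75 (rho 0.55), C1qb 0.68, C4b 0.68, C1qa 0.59 and C1qc 0.59. In series 1 and series 2 alone these were, in the same order, 0.79 and 0.71, 0.72 and 0.42, 0.65 and 0.58, 0.43 and 0.47, and 0.62 and 0.15. With the endothelial sum C3ar1 had 0.58 (rho 0.40), C1qb 0.57, C4b 0.56, C1qc 0.45 and C1qa 0.41 over the 20 libraries. By series, in the same order, these were 0.79, 0.74, 0.52, 0.62 and 0.38 in series 1. In series 2 they were 0.22, 0.52, 0.69, 0.26 and 0.44. C3ar1 also had r = -0.76 with the cortical neuron sum (rho -0.42, -0.90 in series 1 and -0.77 in series 2) and 0.65 with the striatal sum. With the striatal sum C1qb had 0.49, C4b 0.44, C1qc 0.35 and C1qa 0.33 over the 20 libraries. In series 1 and series 2 alone these were, in that order, 0.66 and 0.34, 0.43 and 0.44, 0.44 and 0.10, and 0.33 and 0.22. With the cortical neuron sum the same genes had, in that order, -0.04, -0.19, 0.07 and 0.10. Those were -0.57, -0.65, -0.42 and -0.22 in series 1 alone, and 0.08, -0.20, 0.35 and 0.15 in series 2 alone.

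**Figure D4:**
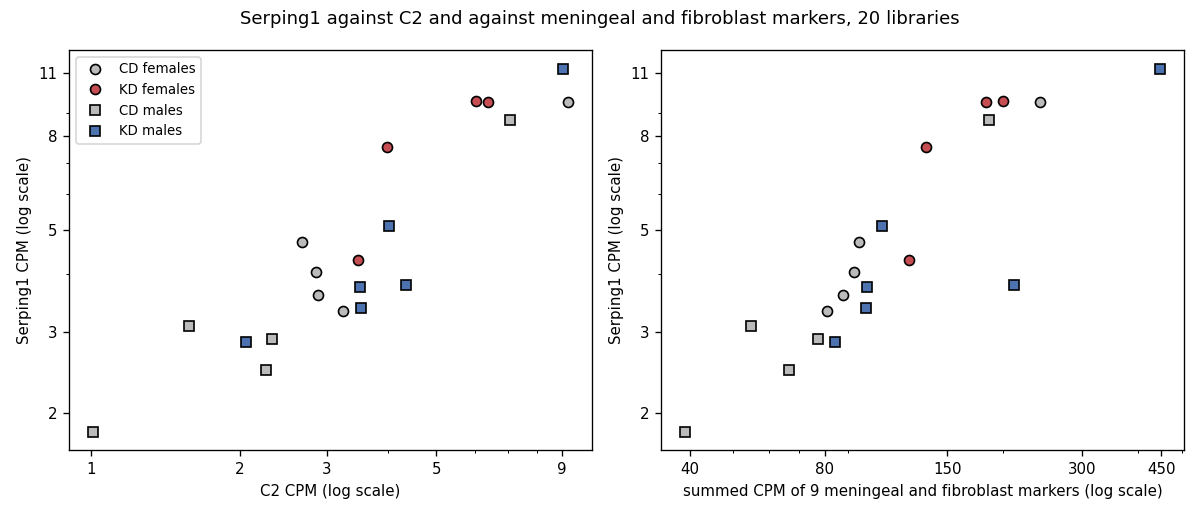
CPM of Serping1 against CPM of C2 (left) and against the summed CPM of 9 meningeal and fibroblast markers (right), 1 point per library, both axes on log scales. Libraries of all groups fall along 1 band, with CD female E249, CD male E264 and KD male E64 at its upper end (Serping1 9.50, 8.68 and 11.2 CPM).

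Of 55 other genes of the pathway, 53 were in the files and 37 passed the filter. In females 1 was higher on the KD at an unadjusted p under 0.05 (Itgam) and 2 lower (C1ra and Sez6l), against 5.86% and 5.5% of all genes. In males 0 were higher and 2 lower (C1ra and C1s), against 2.37% and 1.19%. Over both sexes 3 were higher (Itgam, Cd59a and Sez6) and 2 lower (C1ra and C1s), against 7.41% and 6.44%, and 1 passed the call, C1ra, against 0.268%. The median log2 fold change of the 37 was 0.07 in females, -0.04 in males and 0.01 over both sexes. Between the sexes 7 were higher and 5 lower in females at that threshold, against 8.59% and 4.96% of all genes, and none passed the call. By role, 8 initiators and proteases, 4 other components, 10 receptors and 15 regulators were among the 37.

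C1ra and C1s encode the proteases that sit with C1q in the C1 complex and that the Serping1 product inhibits. C1ra was 6.42, 3.44, 3.69, 4.69 and 5.48 CPM in CD females E62, E67, E249, E265 and E228, and 1.40, 2.28, 1.47 and 3.17 CPM in KD females E61, E68, E207 and E227. Every KD female was below every CD female, as for 0.402% of all genes. In CD males E51, E58, E66, E251 and E264 it was 6.89, 7.42, 8.63, 2.76 and 4.25 CPM, and in KD males 1.84 to 4.48 CPM (median 3.23), so the male groups overlapped. KD females E61, E68 and E207, with the striatal signal, were below E227, which lacked it. KD male E59, with the highest striatal signal, had 3.81 CPM, above the median of KD males. The part of the striatal signal in the C1ra values was not tested.

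Over both sexes C1ra was lower on the KD by 1.07 on the log2 scale (SE 0.232, 0.476-fold, unadjusted p = 0.000184, adjusted p = 0.0783). The log2 fold change was -1.26 in females (SE 0.351, adjusted p = 0.202) and -0.88 in males (SE 0.304, unadjusted p = 0.00898, adjusted p = 1). In males it was -1.27 in series 1 alone but -0.17 in series 2 alone (unadjusted p = 0.683). Leaving out each library gave -1.24 to -0.96 over both sexes, with an adjusted p of 0.00708 to 0.268 that stayed under 0.1 in 7 of 20 cases, those without E53, E249, E213, E256, E251, E227 or E264. In series 2 alone it was -0.61 over both sexes (unadjusted p = 0.0592). Of the 50-base stretches of C1ra, 48.0% occur also in C1rb, which had at most 1 count in any library, so the count of C1ra is uncertain to that extent.

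C1s was 2.34, 1.96, 2.34, 1.95 and 2.47 CPM in CD males E51, E58, E66, E251 and E264 and 1.02 to 1.79 CPM (median 1.54) in KD males. These groups did not overlap, as for 0.115% of all genes, and the log2 fold change of C1s was -0.56 in males (SE 0.241, unadjusted p = 0.0302, adjusted p = 1) and -0.53 over both sexes (SE 0.182, unadjusted p = 0.00937, adjusted p = 0.193). In males it missed an unadjusted p of 0.05 without E51, E66, E264 or E254 (up to 0.0671). In females the groups overlapped, and it was -0.49 (SE 0.274, unadjusted p = 0.0916). The C1s transcripts share 21.8% of their 50-base stretches with C1s2.

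**Figure D5:**
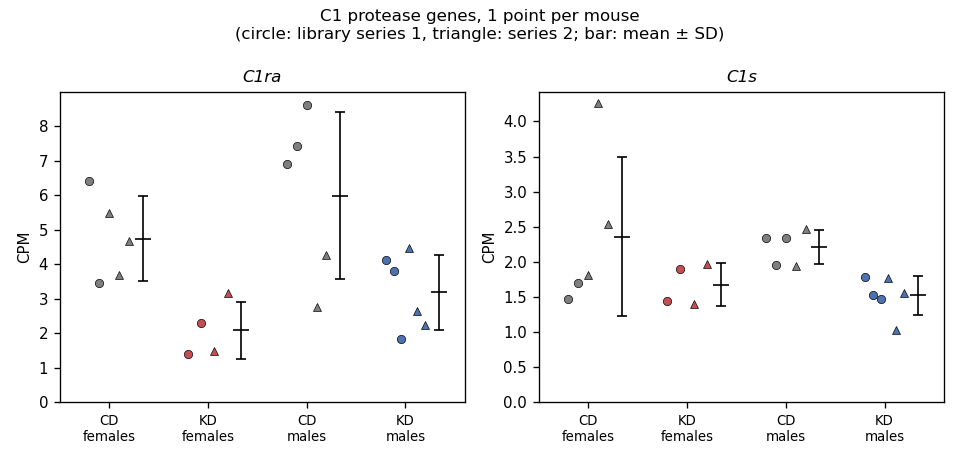
CPM (vertical axes from 0) of the C1 protease genes C1ra and C1s in each mouse, by diet and sex group, with the mean and SD of each group. For C1ra all 4 KD females (1.40 to 3.17 CPM) lie below all 5 CD females (3.44 to 6.42 CPM), and for C1s all 6 KD males lie below all 5 CD males.

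Itgam, a chain of complement receptor 3 on microglia and other myeloid cells, was 24.5 ± 6.61 CPM (SD, n = 5) in CD females and 35.3 ± 10.5 CPM (n = 4) in KD females, with a log2 fold change of 0.39 (SE 0.161, unadjusted p = 0.0262, adjusted p = 0.361). Without E62, E61, E68 or E265 that p was above 0.05 (up to 0.0891). It shares 66.3% of its 50-base stretches with the overlapping gene Gm49368. Cd59a, an inhibitor of the membrane attack complex, had a log2 fold change over both sexes of 0.49 (SE 0.234, unadjusted p = 0.048, adjusted p = 0.355). Without KD male E59, at 14.4 CPM against 4.04 to 5.09 CPM in the other KD males, that of Cd59a was 0.30 (unadjusted p = 0.102), and the unadjusted p stayed under 0.05 in 6 of 20 cases as each library was left out, those without E53, E64, E207, E249, E264 or E254. For Sez6, which encodes a neuronal protein of the Sez6 family, it was 0.46 over both sexes (SE 0.197, unadjusted p = 0.0303, adjusted p = 0.295). The highest Sez6 levels were those of E59 (115 CPM) and E207 (112 CPM), both with the striatal signal. Without E207 that of Sez6 was 0.30 (unadjusted p = 0.134), and the unadjusted p was also above 0.05 without E66, E59, E64 or E62. For Sez6l, of the same family, it was -0.41 in females (SE 0.168, unadjusted p = 0.0261, adjusted p = 0.36), with an unadjusted p above 0.05 (up to 0.0888) without E62, E67, E68, E207 or E228. Among genes too low to test were C1rb, C6, C8a, C8b and C9, each with at most 8 counts in any library.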

How the data were processed

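Per the labels and the study's methods, total RNA of frozen cortex was made into stranded libraries and sequenced as 50-bp read pairs. Alignment to mm10 was done with STAR, and the authors deposited raw counts per gene. The versions, the gene annotation and the strand counted are not given in the sources used here, so antisense and overlapping genes may share counts. Groups came from the sample titles, where SD is the control diet, and library series from the library numbers. All 41 pairs of libraries within groups differed by more than sampling noise (chi-square per degree of freedom 7.25 or above).

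From the deposited counts, CPM on library totals were computed, and log2 CPM used a prior count of 2. Tests used R 4.3.3 and edgeR 4.0.16 on all 20 libraries in 1 fit: filterByExpr, upper-quartile normalization, 4 groups and library series, robust quasi-likelihood F test, Benjamini-Hochberg over 15660 genes. Genes were called at FDR 0.1 with a 1.5-fold change, the study's thresholds. The study's RUVg step, for which neither factors nor control genes are given, was run only as an alternative, as was DESeq2 1.42.0. Permutation tests were exact and two-sided. The script was run on simulated counts with changes in KD females only and no effect of library series or tissue composition. That run therefore does not cover such effects.

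The 9 genes and the lists were chosen with earlier results of these data known. Named besides the 9 are pathway genes with an unadjusted p under 0.05 in a diet comparison, the 3 genes of highest r for each of the 9, marker lists with their defining genes, and the label-check gene Ddx3y. C6, C8a, C8b, C9 and C1rb were named after their values were seen. Coordinates and exon lengths came from GENCODE for GRCm38, the assembly of mm10. Shared sequence was measured as 50-base stretches of transcripts.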

Additional observations from a re-analysis of the deposited data

Results flagged for a closer look

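Within each of the 36 groups of libraries (9 genes in 4 groups), the gap between the highest or lowest library and its neighbour was divided by the group's range and compared with Dixon's critical value, which chance exceeds in about 1 in 20 groups, or 1.8 of 36. In 7 groups it was exceeded, each time by the highest library. For C1qc in KD females the ratio was 0.878, with E61 at 32.7 CPM and the other 3 between 18.8 and 20.5 CPM.

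C2 and Serping1 had the same high library in each of 3 groups. In CD females it was E249, with a ratio of 0.915 for C2 (9.26 CPM against 2.67 to 3.24) and 0.778 for Serping1 (9.50 CPM against 3.33 to 4.70). In CD males it was E264, with 0.783 for C2 (7.07 CPM against 1.01 to 2.32) and 0.814 for Serping1 (8.68 CPM against 1.81 to 3.09). In KD males it was E64, with 0.673 for C2 (9.04 CPM against 2.06 to 4.34) and 0.734 for Serping1 (11.2 CPM against 2.86 to 5.09). The meningeal and fibroblast markers were also highest in these 3 libraries of their groups. Their part in the values was not tested. None of the 9 interactions of diet and sex passed the adjusted threshold.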

How the results depend on the processing

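Over 37 alternatives, 1501 of 1551 values of the 9 genes kept their direction and their side of the threshold, 44 changed direction and 6 came to be called. The cause of these changes was not tested. No paired analysis was possible because no replicate number is shared between groups. The number of the 9 genes called was 0 in every comparison and with each library left out, except 2 for the diet over both sexes in series 1 alone, 1 for females against males by adjusted p alone, and 3 for the diet in females without E228, E249, E227 and E59. The number at an unadjusted p under 0.05 was 3 for the diet in females, 5 in series 1 alone, 1 in series 2 alone, 6 without the 4 libraries, and 2 to 4 with each library left out. For the diet in males it was 0, 1 without the series term and with 1 RUVg factor, 3 in series 1 alone, and 0 to 2 with each library left out. For the diet over both sexes it was 2, 0 without the series term and in series 2 alone, 6 without the 4 libraries, and 1 to 4 with each library left out. For the interaction it was 1, 0 with TMM normalization, with at least 10 counts in every library, with the likelihood ratio test and in series 2 alone, 2 with no filter, with 1 RUVg factor and with DESeq2, 3 in series 1 alone and without the 4 libraries, and 0 to 3 with each library left out. For females against males it was 3, 1 with at least 10 counts in every library, without the series term, in series 2 alone, without the 4 libraries and on the control diet alone, 5 with 1 or 2 RUVg factors, and 1 to 5 with each library left out. The comparisons of the sexes on each diet were chosen after seeing the data.

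Changes of direction, as log2 fold changes, were most frequent in series 2 alone. For the diet in females these were C2 -0.48, C3 -0.050, C3ar1 -0.022 and Serping1 -0.0063; in males C1qc -0.0053, C4b 0.065, C2 -0.24, C3 0.40, C3ar1 0.20 and Serping1 -0.49; over both sexes C2 -0.36, C3 0.17 and Serping1 -0.25; for the interaction C3 -0.45 and C3ar1 -0.23; and for females against males C2 -0.014 and C3 0.55. In series 1 alone they were C5ar1 in males -0.35 and over both sexes -0.14, Serping1 for the interaction -0.013, and C1qa for females against males -0.038. Without the 4 libraries they were C5ar1 in males -0.032, C3 over both sexes 0.21, C2 for the interaction 0.040, and C1qa for females against males -0.029. With the sexes fitted separately C5ar1 in males was -0.017, and on the ketogenic diet alone C3 in females against males was 0.84. With each library left out, values that crossed 0 ranged from -0.018 to 0.22 for C1qa, -0.19 to 0.041 for C4b, -0.093 to 0.30 for C5ar1 and -0.020 to 0.97 for Serping1 (diet in males), from -1.06 to 0.12 for C2, -0.13 to 0.27 for C5ar1 and -0.43 to 0.71 for Serping1 (interaction), and from -0.30 to 0.27 for C3 (females against males). Library series 2 has the lower totals, and counts of 2 to 21 for C5ar1 and 2 to 85 for C3 limit what could be detected.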
